A study of Mus musculus with 107 samples.

Results

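B16-F10 is a pigmented mouse melanoma cell line, and the 3 tumors described here were grown from it and left untreated. They are the treatment-naive B16-F10 tumors among 107 tumors of 12 syngeneic models, in which a mouse tumor line is transplanted into an immunocompetent host of a matched strain. Against them stand 32 treatment-naive tumors of the 11 other models, each model entering once through its mean. RNA of each tumor was sequenced after depletion of ribosomal RNA, and the study as a whole asked how the microvessel density (MVD) of a tumor relates to its response to lenvatinib (LEN), an oral inhibitor of VEGF, FGF and PDGF receptors, Kit and Ret.

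The B16-F10 hosts were female C57BL/6NCrl mice, 7 weeks old at implantation into the right flank. Treatment-naive tumors were collected at about 100 mm3, before any dosing. A further set of 3 B16-F10 tumors received no treatment (NT) and was collected on day 8, counted from the day on which tumors had reached that size, and it has 33 NT counterparts in the other models. The other models were CT26.WT and MC38 colon, 4T1 and EMT6 breast, Renca and RAG kidney, BNL 1ME A.7R.1 and Hepa 1-6 liver, LL/2 and KLN205 lung, and MBT2 bladder tumors. Their hosts were BALB/cAnNCrlCrlj mice for BNL 1ME A.7R.1, RAG, 4T1, CT26.WT, EMT6 and Renca, C57BL/6NCrl for MC38, C57BL/6JCrl for LL/2, C3H/HeNCrl for MBT2, DBA/2NCrl for KLN205 and C57L/J for Hepa 1-6. The hosts of BNL 1ME A.7R.1 and Hepa 1-6 were male and the others female, and RAG had been adapted to growth in mice. Every model is a single cell line, so a difference between B16-F10 and the others is a difference between lines, which cannot be told apart from the tissue of origin. MC38 shares the host strain of B16-F10 and LL/2 a related substrain. Comparisons with these models alone are given where they turn a direction, in part only in the closing section, where calls lost are counted. Treatment-naive MC38 had 2 tumors and every other group had 3.

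Melanocytes arise from the neural crest, and their identity rests on the transcription factors Mitf, Sox10 and Pax3. Mitf switches on the enzymes that make melanin, which are tyrosinase (Tyr), Tyrp1 and Dct, and the proteins that build, load and move the melanosome, the organelle that holds the pigment. It binds E-box sequences, and TCATGTG with its reverse complement CACATGA is the extended form known from the promoters of pigment genes.

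The promoters of the genes that set B16-F10 apart most are shown because 6 of them hold that sequence close to the start of transcription. The windows are RefSeq sequences of build GRCm38.p6 running from 250 bases before to 50 bases after the start, written 5' to 3' on the strand of the gene, with each TCATGTG or CACATGA in capitals. They are Tyr at chr7:87493463-87493762 on the minus strand, Tyrp1 at chr4:80833963-80834262 on the plus strand, Dct at chr14:118052197-118052496 on the minus strand, Trpm1 at chr7:64153585-64153884 on the plus strand, Slc24a5 at chr2:125067877-125068176 on the plus strand, and Tspan10 at chr11:120442381-120442680 on the plus strand.
Tyr: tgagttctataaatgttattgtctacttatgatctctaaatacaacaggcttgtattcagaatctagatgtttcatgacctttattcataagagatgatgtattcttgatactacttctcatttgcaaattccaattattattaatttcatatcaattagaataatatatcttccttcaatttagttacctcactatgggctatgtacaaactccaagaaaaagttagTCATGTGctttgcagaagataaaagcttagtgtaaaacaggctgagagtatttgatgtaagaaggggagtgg
Tyrp1: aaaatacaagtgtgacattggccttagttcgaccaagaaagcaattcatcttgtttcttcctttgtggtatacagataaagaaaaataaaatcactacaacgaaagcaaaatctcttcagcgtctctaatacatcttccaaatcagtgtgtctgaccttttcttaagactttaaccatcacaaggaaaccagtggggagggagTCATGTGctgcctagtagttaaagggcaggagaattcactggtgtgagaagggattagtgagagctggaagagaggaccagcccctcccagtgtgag
Dct: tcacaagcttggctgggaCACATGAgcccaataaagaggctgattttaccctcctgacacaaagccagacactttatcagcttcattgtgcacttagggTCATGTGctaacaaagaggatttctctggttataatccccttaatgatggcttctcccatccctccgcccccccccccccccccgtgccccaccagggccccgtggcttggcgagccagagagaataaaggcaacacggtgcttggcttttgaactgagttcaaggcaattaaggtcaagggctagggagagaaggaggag
Trpm1: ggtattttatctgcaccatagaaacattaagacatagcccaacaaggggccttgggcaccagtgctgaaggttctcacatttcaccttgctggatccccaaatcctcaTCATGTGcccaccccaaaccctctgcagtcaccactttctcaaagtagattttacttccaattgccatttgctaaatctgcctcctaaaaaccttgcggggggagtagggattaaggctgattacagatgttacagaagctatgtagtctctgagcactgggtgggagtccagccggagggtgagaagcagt
Slc24a5: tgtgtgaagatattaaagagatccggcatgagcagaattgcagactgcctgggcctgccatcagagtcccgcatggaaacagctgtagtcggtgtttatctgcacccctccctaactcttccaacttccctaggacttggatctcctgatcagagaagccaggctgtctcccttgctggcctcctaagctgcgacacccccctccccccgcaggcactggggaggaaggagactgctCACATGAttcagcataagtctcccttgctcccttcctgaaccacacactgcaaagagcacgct
Tspan10: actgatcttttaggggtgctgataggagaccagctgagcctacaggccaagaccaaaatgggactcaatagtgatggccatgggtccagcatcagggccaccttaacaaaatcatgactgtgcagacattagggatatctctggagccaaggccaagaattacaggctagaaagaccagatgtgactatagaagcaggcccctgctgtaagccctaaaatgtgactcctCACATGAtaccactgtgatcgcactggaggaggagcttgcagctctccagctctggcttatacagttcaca

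The match began 22 bases before the start in Tyr, 47 bases before it in Tyrp1, 142 bases before it in Trpm1, 21 bases before it in Tspan10 and 13 bases before it in Slc24a5. Dct held a pair of matches, at 151 and 232 bases before the start. A window was found for 16 of the 21 genes of the pigment list used below, and 6 of the 16 (37.5%) held the sequence on either strand. It was present in 1165 of 27025 genes with a window (4.31%) and in 308 of 10713 genes of the expression comparison with a window (2.88%). The shorter core CATGTG, which is contained in it, was present in 7 of the 16 (43.8%), Oca2 being the addition, and in 11% of the genes of the comparison. Among the lineage factors and receptors, 1 of 10 genes with a window held the longer form, namely Mc1r, the melanocortin receptor of melanocytes, 52 bases before its start. Since the sequence is known from promoters of pigment genes, its share in the pigment list is not independent evidence. A match describes the letters of these windows, and whether it is bound or affects expression was not tested.

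Expression is given as TPM, transcripts of a gene per fixed total of transcripts in the tumor, which takes out the length of each gene, and differences are given on the log2(TPM + 1) scale as B16-F10 minus the mean of the 11 other model means. The table holds TPM without read counts, so depth and counting error per tumor are unknown. In the 3 treatment-naive B16-F10 tumors protein-coding genes took 56.0%, 60.4% and 59.7% of the TPM, while the means of the other models ran from 38.9% in 4T1 to 58.8% in MBT2. Because this share differs between models, each named gene whose call is lost when TPM is rescaled to protein-coding genes is given as such. Foxp3, Lck, Vegfa, Trp53, Slc2a1 and Esrra, which did not pass the test below, were lower after that rescaling.

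The treatment-naive B16-F10 tumors differed from the other models at most genes that reached 1 TPM on average. Of 17542 genes with a mean of at least 1 TPM, 6435 (36.7%) were higher and 5591 (31.9%) were lower in B16-F10 (limma with Benjamini-Hochberg adjustment, adjusted p under 0.05). The median difference was 0.043 over all tested genes, and the median size of a difference, regardless of sign, was 0.52. Rescaling TPM to protein-coding genes moved the median of all genes to -0.204, so that 37.1% rather than 53.5% of the calls were higher. This test sets the difference against the spread between tumors of the same model, which is small, with a median standard error of 0.119. A stricter description is that all 3 B16-F10 tumors lay beyond every one of the 32 other tumors, which held for 1491 genes above (8.50%) and 907 genes below (5.17%). Counts of list members below are to be read beside these shares and those of all higher and lower calls. Tested against the spread between the 11 other model means instead, 307 genes (1.75%) were higher and 90 (0.513%) were lower. In pairwise contrasts 1242 genes (7.08%) were higher than in each of the 11 other models and 805 (4.59%) were lower. The share of genes called in either direction ran from 53.2% against MC38, which had 2 tumors, to 65.7% against 4T1, and on day 8 from 59.4% against LL/2 to 67.0% against Hepa 1-6.

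Pigment genes set the 3 tumors apart from every other tumor. Of the 21 genes of the pigment enzyme and melanosome list, 20 were higher in B16-F10, all 20 lay above every other tumor, and 17 held against the spread between models. The median difference of the list was 6.18. These genes also define the identity of the line, so their levels check the label.

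Tyrp1, which stabilises tyrosinase and oxidises melanin intermediates, reached 3308, 3143 and 3237 TPM, whereas the other tumors ran from 0 through a median of 0 to a highest value of 1.02. Dct, the dopachrome tautomerase, reached 2272, 2375 and 2370 TPM against a highest value of 0.18 elsewhere. Tyr, the rate-limiting enzyme of melanin synthesis, reached 242, 250.4 and 241 TPM against at most 0.69. All 3 enzyme genes were thus abundant in each B16-F10 tumor and at or near 0 in each of the others. The differences were 11.60 ± 0.12 (SE) for Tyrp1, 11.17 ± 0.06 for Dct and 7.91 ± 0.10 for Tyr, with adjusted p of 6.37e-31, 1.07e-37 and 7.43e-30 (limma, Benjamini-Hochberg).

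The structural and transport proteins of the melanosome followed the same order. Pmel, the protein that forms melanosome fibrils, stood at 1619, 1637 and 1602 TPM, with a highest value of 1.2 elsewhere and a difference of 10.24. Mlana, a melanosome membrane protein used as a melanoma antigen, stood at 939, 1113 and 1096 TPM against at most 0.89, a difference of 9.88. The ion and solute transporters were lower in level but as separate. Slc45a2 stood at 290.1, 318 and 314 TPM against at most 0.08, Slc24a5 at 264, 291 and 294 TPM against at most 3.87, and Oca2 at 40.2, 40.4 and 40.1 TPM against at most 0.47. The cation channel Trpm1 stood at 289.8, 299 and 332 TPM against at most 0.64, and the tetraspanin Tspan10 at 186, 204 and 212 TPM against at most 0.17. No tumor of another model came near these values.

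Genes that pigment cells share with other cells were separated from the highest other tumors by smaller margins or, for Hps4, not at all. Gpnmb, a glycoprotein of melanosomes and of phagocytic cells, stood at 1381, 1299 and 1248 TPM, and the other tumors spanned 0.55 to 392 with a median of 13.1. RAG had the highest other model mean for Gpnmb, 339.8 TPM, and the difference of 6.18 did not hold against the spread between models (adjusted p = 0.269). Melanosome transport uses Rab27a, Mlph and Myo5a as a chain of adaptor and motor, and all of them lay above every other tumor. Rab27a stood at 107, 114 and 110.0 TPM with others up to 16.3, Mlph at 103, 109 and 109 TPM with others up to 44.3, and Myo5a at 255, 248 and 243 TPM with others from 27.2 to 97.0. The call for Mlph was also lost against the spread between models (adjusted p = 0.267). The copper pump Atp7a, which supplies tyrosinase with its metal, stood at 42.2, 43.0 and 42.5 TPM against 7.84 to 19.5. Rab32, a trafficking regulator with Rab38, gave the narrowest separation, at 22.2, 25 and 24.7 TPM against 3.86 to 18.6, and did not hold against the spread between models (adjusted p = 0.459). Hps4, a subunit of the complex that activates these Rab proteins, stood at 13.6, 13.4 and 12.1 TPM within the range of 5.89 to 17 of the other tumors, and did not pass the test (adjusted p = 0.088).

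**Figure D1:**
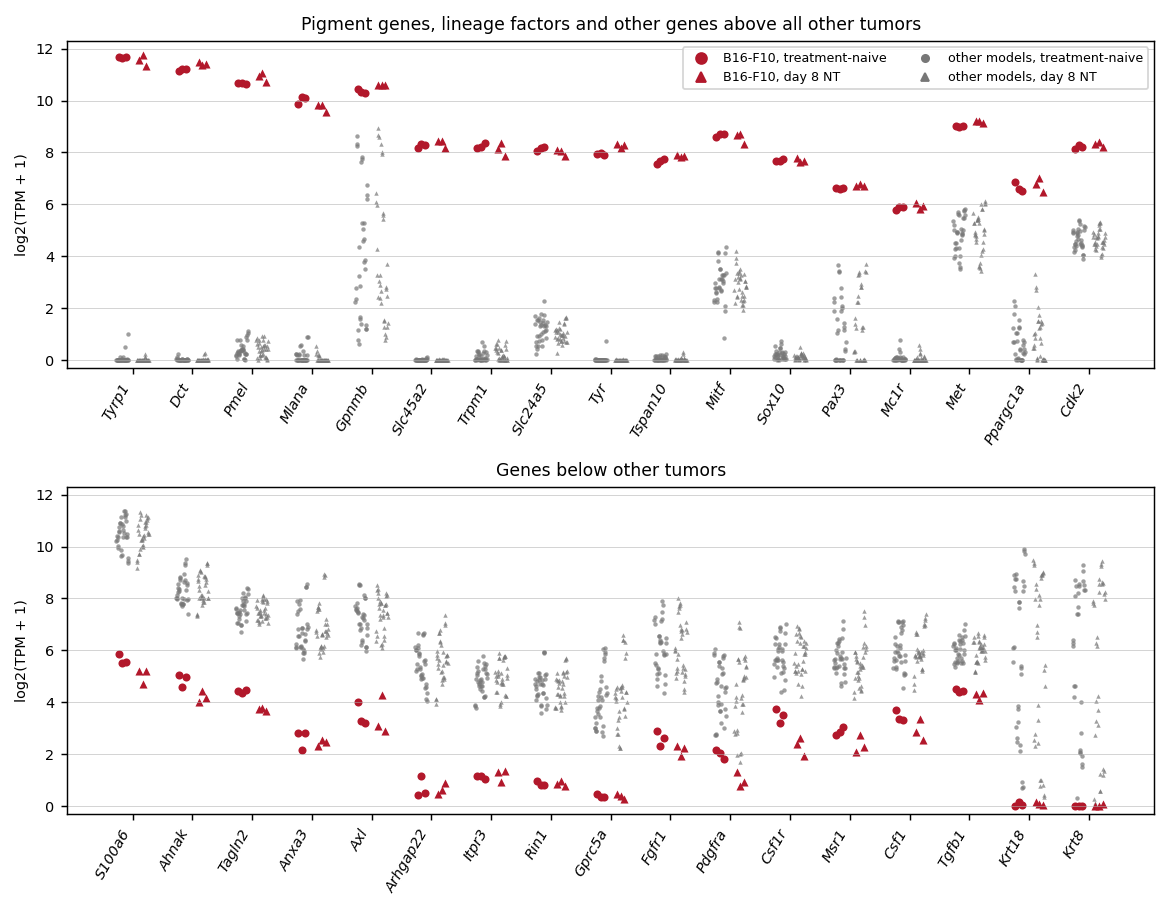
Levels of single genes in every untreated tumor as log2(TPM + 1), with genes above the other tumors in the upper panel and genes below them in the lower panel. Red points are B16-F10 tumors and grey points the other models, circles are treatment-naive and triangles day 8 NT, and the red points of Tyrp1, Dct and Tyr lie far above grey points near 0 at both stages while Gpnmb is spread widely among the other models.

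The factors that set up the melanocyte lineage were raised in part. Of 13 tested genes of that list, 9 were higher, 3 were lower and 1 did not pass the test, with a median difference of 1.64. 6 of the 9 lay above every other tumor, and 5 held against the spread between models, namely Mitf, Sox10, Pax3, Mc1r and Met.

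Mitf stood at 382, 418 and 422 TPM, with other tumors from 0.81 through 6.83 to 19.8, a difference of 5.71 ± 0.17 (adjusted p = 1.49e-20). Sox10 stood at 205, 204 and 215 TPM against at most 0.68, and Pax3 at 98.9, 96.9 and 97.9 TPM against at most 11.7. The other tumors thus carried some Mitf RNA and almost no Sox10 RNA, and none of them overlapped B16-F10 for either gene. The receptor gene Met, a Mitf target in melanocytes that encodes the hepatocyte growth factor receptor, stood at 518, 504 and 520.5 TPM, with others from 10.4 to 55.1 and the highest other model mean in Hepa 1-6. Mc1r stood at 53.6, 58.2 and 59.5 TPM against at most 0.74.

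The remaining lineage genes were closer to the other models. Tfap2a stood at 35.2, 36.1 and 35.7 TPM and the others reached 29.1. The receptor genes Kit and Erbb3 were higher by 0.87 and 2.04, with B16-F10 tumors inside the range of the others. Ednrb, the endothelin receptor of melanoblasts, stood at 4.51, 3.67 and 4.38 TPM and did not pass the test (difference 0.10, adjusted p = 0.692). Zeb2 was higher by 0.77, while Sox9, Snai2 and Lef1 differed by -1.45, -1.12 and -0.51 and were lower. These last values, with those of Kit, Erbb3, Zeb2 and Tfap2a, did not hold against the spread between models.

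Genes of the neural crest and of Schwann cells, the glia that share this origin, were called at shares near those of all genes (36.7% higher and 31.9% lower). Of 13 tested, 5 were higher, 4 were lower and 4 did not pass the test, and rescaling to protein-coding genes made 6 lower. The genes of this list that lay above all other tumors also held against the spread between models. Among them, S100b stood at 33.6, 37.3 and 33.7 TPM against at most 1.19, Cdh19 at 26.8, 30.6 and 33.0 TPM against at most 0.56, and Fabp7 at 12.4, 13.5 and 14.6 TPM against at most 0.38. The stem cell factor Sox2 was listed at 0 in all 3 B16-F10 tumors and reached 26.5 TPM in another model.

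Of the 15 protein-coding genes with the widest gap above the nearest other model, 10 have been given above. The other 5 were not on the pigment list or the lineage list. Syt4, a synaptotagmin of secretory vesicles, stood at 253, 272 and 256 TPM against at most 2.12, and Glrb, the beta subunit of the glycine receptor, at 111, 139 and 122 TPM against at most 0.96. Car14, a membrane carbonic anhydrase, stood at 143, 162 and 135 TPM against at most 1.27. Fkbp6, a co-chaperone known from meiosis, stood at 85.8, 97.4 and 99.1 TPM and was listed at 0 in all 32 other tumors. Ankfn1 stood at 126, 126 and 115 TPM against at most 0.51. All 15 held against the spread between models and again lay above every other tumor on day 8. These 15 and the 15 genes with the widest gap below, 30 in all, kept their calls against MC38 and LL/2 alone.

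The 15 protein-coding genes with the widest gap below the nearest other model included S100a6, Ahnak and Tagln2. S100a6, a calcium-binding protein of mesenchymal and proliferating cells, stood at 57.9, 45.0 and 45.7 TPM, with other tumors from 650.1 through 1446 to 2667. The difference was -4.83 ± 0.09 (adjusted p = 2.55e-25, and 0.000347 against the spread between models). Ahnak, a giant scaffold protein beneath the plasma membrane, stood at 32, 23.3 and 30.3 TPM against 170.4 to 736. Tagln2, an actin-binding protein, stood at 20.7, 19.5 and 21.5 TPM against 102 to 338. Every B16-F10 tumor was thus below every other tumor by several fold for these 3 genes.

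The other genes of the 15 below include receptors and regulators of signalling. Axl, the receptor tyrosine kinase for Gas6, stood at 15.2, 8.82 and 8.13 TPM against 61.6 to 376, a difference of -3.76. The guanine nucleotide exchange factor Rin1 stood at 0.97, 0.78 and 0.76 TPM against 11 to 61.1, and the GTPase-activating protein Arhgap22 at 0.36, 1.25 and 0.43 TPM against 15.5 to 101. Itpr3, a calcium channel of the endoplasmic reticulum, stood at 1.22, 1.24 and 1.10 TPM against 12.8 to 54.2, and the annexin Anxa3 at 6.00, 3.45 and 6.09 TPM against 50.3 to 371. Gprc5a, an orphan receptor of epithelia, stood at 0.40, 0.29 and 0.27 TPM against 5.55 to 67.2, and it was the only gene of the 15 whose call was lost against the spread between models (adjusted p = 0.0758). The 3 histone genes Hist1h2bl, Hist1h2bp and Hist1h3h were lower, with differences of -5.27, -4.51 and -3.98 and with the reservation that histone genes are near-identical copies among which reads can be split. The list closes with the transcription factor Glis2, the mitochondrial folate enzyme Mthfd2l and AI467606, with differences of -3.08, -3.31 and -2.89.

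Epithelial genes were low in B16-F10, with the other models spread widely. All 23 tested genes of the list were lower, 2 lay below every other tumor, none held against the spread between models, and the median difference was -1.75. Over all genes tested, 31.9% were lower and 5.17% lay below every other tumor. Krt18, a keratin of simple epithelia, stood at 0, 0.13 and 0.05 TPM, and the other tumors ran from 0.65 through 67.9 to 964. Its partner Krt8 was listed at 0 in all 3 tumors and ran from 0 through 80.0 to 617 elsewhere, the highest model mean being that of the squamous line KLN205. Epcam stood at 0, 0.04 and 0.06 TPM against 0 to 151, and the E-cadherin gene Cdh1 at 0.56, 1.05 and 0.93 TPM against 0.66 to 56.2. Krt18 thus lay below every other tumor, while Krt8, Epcam and Cdh1 overlapped the lowest of the others. The TPM summed over the list was 10.8, 6.67 and 5.4, against 19.5 to 3359 elsewhere.

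Genes of the mesenchymal state were also low in B16-F10. Of 10 genes for epithelial-mesenchymal transition factors and mesenchymal proteins, 8 were lower and 2 were higher, with a median difference of -2.50, and 5 lay below every other tumor. The transcription factor gene Twist1 stood at 0.89, 0.88 and 0.58 TPM against 1.19 to 47.5, and Twist2 at 0.81, 0.34 and 0.80 TPM against 2.84 to 43.8. Zeb1 stood at 4.44, 3.97 and 3.61 TPM against 4.96 to 88.1, while its relative Zeb2 was higher, as given above. The intermediate filament gene Vim stood at 853, 894 and 915 TPM, inside the range of 300.2 to 3854 of the others, and was lower, with a difference of -0.61. Cdh2, the N-cadherin gene, was higher by 2.15, at 19.2, 21 and 21.6 TPM, and MBT2 had a higher mean of 36.3 TPM. Axl was the only gene of this list to hold against the spread between models (adjusted p = 0.0106).

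**Figure D2:**
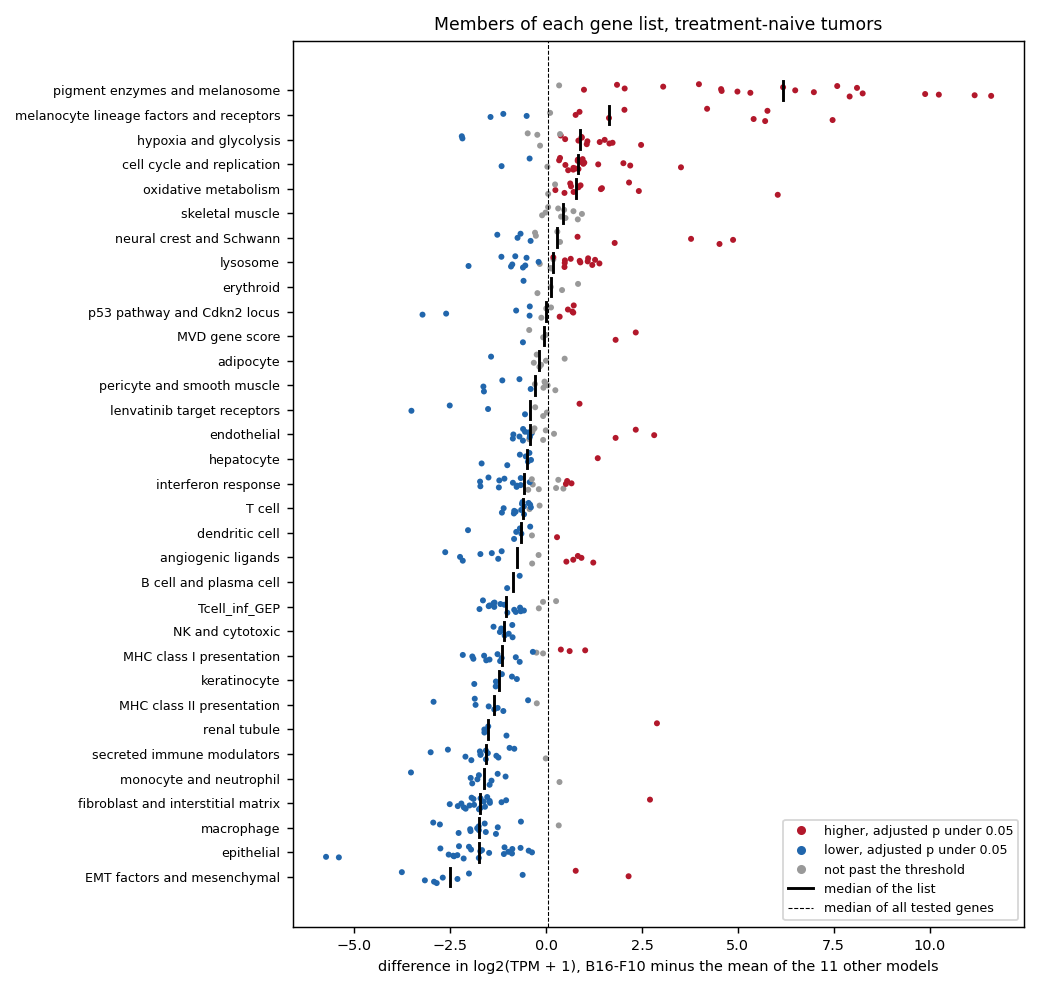
Difference of every tested list member in log2(TPM + 1), treatment-naive B16-F10 minus the mean of the 11 other models, with lists ordered by their median and the sex gene list left out. Red and blue points passed the test as higher or lower, grey points did not, the bar is the median of the list and the dashed line the median of all tested genes at 0.043, and the pigment list lies farthest to the right with a median of 6.18 while the epithelial, macrophage and mesenchymal lists lie farthest to the left of the lists plotted.

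Macrophage genes were low in B16-F10. Averaged over the list, log2(TPM + 1) was 3.83 ± 0.18 (SD, n = 3) against 5.49 for the other models together, the lowest of the 12 models. By summed TPM, 841.5, 780.2 and 890.4, B16-F10 was not the lowest, since BNL 1ME A.7R.1 had a mean of 802.5 and the lowest other tumor 588. Of 14 genes, 13 were lower, none was higher, 8 lay below every other tumor and the median difference was -1.75. In bulk RNA, fewer cells of a type and less RNA per cell cannot be told apart, and this holds for every cell type named below. Csf1r, the receptor on which macrophages depend for survival, stood at 12.6, 8.34 and 10.6 TPM, with other tumors from 20.3 through 50.5 to 130.3. The difference was -2.28 ± 0.16 (adjusted p = 1.74e-12). The scavenger receptor gene Msr1 stood at 5.78, 6.35 and 7.39 TPM against 23.8 to 138, and it was the only gene of the list to hold against the spread between models (adjusted p = 0.0225). The complement gene C1qa stood at 49.5, 36.8 and 52.6 TPM against 73.5 to 371, and C1qb and C1qc, whose products join it in the C1q molecule, lay below all other tumors as well. Apoe, a lipid carrier made by macrophages and by other cells, stood at 610.5, 600.4 and 657 TPM within the range of 71.2 to 2978 and did not pass the test (adjusted p = 0.226).

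The ligand side of this axis was low too. Csf1, which encodes the ligand of Csf1r, stood at 12.1, 9.28 and 9.10 TPM against 22.3 to 141, a difference of -2.56. It belongs to a list of 16 cytokines, chemokines and other modulators of immune cells, of which 15 were tested, 14 were lower, none was higher and 4 lay below every other tumor. Tgfb1, a suppressive cytokine, stood at 22.2, 19.9 and 20.8 TPM against 40.2 to 127. The neutrophil chemokine gene Cxcl1 stood at 0.30, 0.70 and 0.17 TPM against 2.99 to 37.3, and it alone held against the spread between models (adjusted p = 0.0497). The ectonucleotidase gene Entpd1 stood at 5.65, 5.40 and 6.45 TPM against 7.68 to 58.5, while Tgfb2 did not pass the test (difference -0.01, adjusted p = 0.968) and was higher by 0.81 against MC38 and LL/2 alone (adjusted p = 0.00332). Of 10 tested monocyte and neutrophil genes 9 were lower, and Mmp9 at 0.98, 0.90 and 0.68 TPM and Csf3r at 3.35, 1.07 and 1.42 TPM lay below every other tumor.

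Lymphocyte genes were lower with overlap. Of 15 T cell genes 13 were lower, none lay outside the other tumors, and the median difference was -0.61. Cd3e, a subunit of the T cell receptor complex, stood at 1.17, 0.67 and 3.12 TPM against 0.61 through 3.03 to 39.8, so that each B16-F10 tumor lay inside the range of the others. Cd8a stood at 0.54, 0.27 and 0.48 TPM against 0.03 to 26.5. Foxp3, the factor of regulatory T cells, stood at 1.43, 0.92 and 0.81 TPM and did not pass the test (adjusted p = 0.202), nor did the kinase gene Lck (adjusted p = 0.105). All 8 tested NK and cytotoxic genes and both tested B cell genes were lower, and of 8 tested dendritic cell genes 6 were lower and 1, Zbtb46, was higher by 0.28, a call lost on rescaling to protein-coding genes. None of these calls held against the spread between models. Of the 18 genes of Tcell_inf_GEP, the T cell-inflamed gene expression profile used in the study, 15 were lower, none was higher and the median difference was -1.05. Its chemerin receptor gene Cmklr1 lay below every other tumor and held against the spread between models (adjusted p = 0.0424).

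Most MHC class I genes were lower in B16-F10. Of 17 MHC class I genes, 12 were lower and 3 were higher, with a median difference of -1.16. The class I heavy chain gene H2-D1 stood at 166, 129.7 and 132 TPM against 59.4 to 1562 and was lower, with a difference of -1.56. The immunoproteasome subunit gene Psmb8 was at 27.5, 21.2 and 11.5 TPM against 10.1 to 252, and the peptide transporter gene Tap2 at 14.6, 9.20 and 5.28 TPM against 6.11 to 85.4. B2m, the light chain gene, stood at 746, 535 and 549.9 TPM and was lower, with a difference of -0.69. The 3 genes that were higher, Calr, Canx and Pdia3, encode general chaperones of the endoplasmic reticulum, and the call for Pdia3 was lost on rescaling to protein-coding genes. Nlrc5, the class I transactivator gene, did not pass the test (adjusted p = 0.428). Of 9 tested class II genes 8 were lower. Cd74, the invariant chain gene, stood at 147, 98.7 and 102 TPM against 80.0 to 2780.

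Interferon response genes were more often lower than higher. Of 22 tested, 12 were lower, 3 were higher and 7 did not pass the test, with a median difference of -0.56. Over all genes tested, 31.9% were lower and 36.7% higher. Rescaling to protein-coding genes left none higher and made 13 lower. Irf7, a regulator of the type I response, stood at 14.9, 12.9 and 7.75 TPM against 7.4 to 161 and was lower, with a difference of -1.71. The chemokine genes Cxcl9 and Cxcl10 did not pass the test (adjusted p = 0.809 and 0.35). The antiviral genes Ifit2, Ifit3 and Rsad2 were higher by 0.52, 0.66 and 0.55, but none of the 3 remained higher on rescaling to protein-coding genes. Against MC38 and LL/2 alone, the other lines in C57BL/6 hosts, their differences were -0.23, -0.59 and -1.18, and Rsad2 was lower (adjusted p = 0.000461). No class I, class II or interferon gene held against the spread between models.

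Fibroblast and matrix genes were lower with a single exception. Of 20 genes 19 were lower, 3 lay below every other tumor, none held against the spread between models and the median difference was -1.73. Over all genes tested, 31.9% were lower and 5.17% lay below every other tumor. The fibrillar collagen gene Col3a1 stood at 139, 108 and 164 TPM, with other tumors from 97.6 through 545 to 1267, and Col1a1 at 114, 88.5 and 134 TPM against 40.5 to 1640. The TPM summed over the list was 618, 498 and 680.4, below the range of 810.2 to 7679 of the others, in which RAG had the lowest model mean. Pdgfra, the PDGF receptor of fibroblasts, stood at 3.52, 3.13 and 2.5 TPM against 5.69 to 65.9, below every other tumor. The exception was Fbln1, an elastic fibre protein, which was higher by 2.71 at 51, 53 and 52.2 TPM, with Renca higher still at a mean of 115 TPM. Pericyte genes were lower in 5 of 11 cases, among them Pdgfrb and Acta2 with differences of -1.62 and -1.63, while Rgs5 did not pass the test (adjusted p = 0.256). None was higher and 6 did not pass the test, beside 36.7% higher and 31.9% lower over all genes.

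Endothelial genes went both ways. Of 19 genes, 3 were higher and lay above every other tumor, 10 were lower, and 6 did not pass the test, with a median difference of -0.42, and rescaling to protein-coding genes made 13 lower. Vwf, the von Willebrand factor gene, stood at 27.8, 22.7 and 22.7 TPM, with other tumors from 0.50 through 2.73 to 8.33. The difference was 2.82 ± 0.16 (adjusted p = 8.96e-15, and 0.0387 against the spread between models). The other genes above all tumors, the TGF-beta co-receptor gene Eng at 88.3, 91.0 and 83.5 TPM and the matricellular gene Sparcl1 at 117, 113 and 108 TPM, had their highest other model means in BNL 1ME A.7R.1, at 61.3 and 77.0 TPM, and did not hold against the spread between models. Pecam1, the gene of the CD31 antigen, was lower at 12.8, 11 and 12.1 TPM against 12.7 to 47.5. The paper counted CD31-stained vessels per tumor area, a measure other than RNA, and placed B16-F10 among its MVD-high models. The VEGF receptor gene Kdr did not pass the test at 5.53, 5.79 and 5.20 TPM against 1.89 to 17.5 (adjusted p = 0.672). A high level of 3 endothelial genes thus stood beside low or middling levels of the others in the same tumors. Of the 6 genes of the MVD gene score, which the study chose on these tumors so that their direction is not independent evidence, 2 were higher, 1 was lower and 3 did not pass the test. Over all genes tested 36.7% were higher and 31.9% lower. Averaged over these 6 genes, log2(TPM + 1) was 3.72 ± 0.02 (SD, n = 3) against 3.22 for the other models, rank 3 of the 12 models, and their summed TPM of 226, 224.8 and 210.0 exceeded the highest other value of 202.

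**Figure D3:**
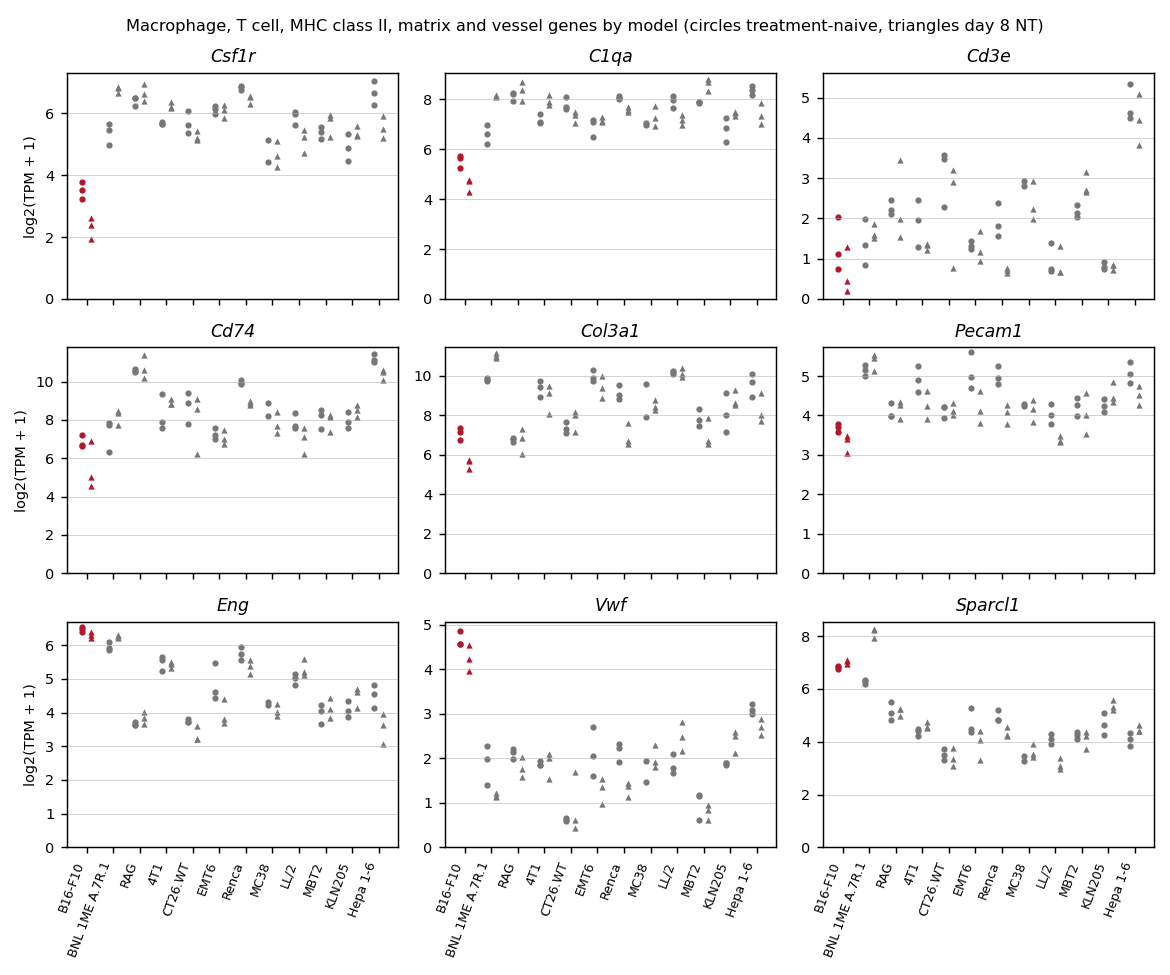
Levels of 9 genes of macrophages, T cells, antigen presentation, matrix and vessels in each untreated tumor by model, as log2(TPM + 1). Red marks B16-F10 and grey the other models, circles are treatment-naive and triangles day 8 NT tumors, and B16-F10 is lowest for Csf1r and C1qa, overlaps other models for Cd3e, Cd74 and Col3a1 before day 8, and is highest among the treatment-naive tumors for Eng, Vwf and Sparcl1.

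Ligands and receptors of the pathways that LEN targets were compared without regard to LEN. Of 14 tested angiogenic ligand genes, 5 were higher and 7 were lower, beside 36.7% higher and 31.9% lower over all genes. Vegfb stood at 69.5, 63.4 and 69.5 TPM, above the highest other value of 59.6, and Angpt2, a ligand of Tek, was higher by 0.92 at 13.6, 10.6 and 12.1 TPM within the range of the others. Vegfa stood at 76.7, 65.1 and 56.6 TPM against 27.9 to 208 and did not pass the test (difference -0.36, adjusted p = 0.109). Pdgfa, Pdgfc and Angptl4 lay below every other tumor, with differences of -1.71, -2.63 and -2.24. Of 8 tested receptor genes, 4 were lower and 1, Kit, was higher. Fgfr1 stood at 6.42, 4.00 and 5.19 TPM against 19.6 through 69.4 to 235, below every other tumor, with a difference of -3.51 (adjusted p = 2.40e-19, and 0.0767 against the spread between models). Neither list had a call that held against that spread.

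Genes of oxidative metabolism were higher in B16-F10. Of 14 genes 12 were higher, none was lower, 7 lay above every other tumor, 4 held against the spread between models, and the median difference was 0.78. Rescaling to protein-coding genes left 10 higher and made 1 lower, with a median of 0.523. Ppargc1a, the coactivator that drives mitochondrial biogenesis and is known as a Mitf target in melanoma, stood at 117, 95.5 and 91.6 TPM, with other tumors from 0 through 0.35 to 3.91. The difference was 6.04 ± 0.13 (adjusted p = 9.69e-24). The succinate dehydrogenase subunit gene Sdhb stood at 289, 334 and 319 TPM against 36.9 to 122, the cytochrome c gene Cycs at 201, 230.3 and 215 TPM against 23.9 to 123, and the complex I subunit gene Ndufs1 at 92.7, 107 and 105 TPM against 27.2 to 52.7. These 3 genes and Ppargc1a are the ones that held against the spread between models. Esrra, a nuclear receptor partner of Ppargc1a, did not pass the test (difference 0.05, adjusted p = 0.579) and was lower on rescaling to protein-coding genes, with a difference of -0.20.

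Glycolysis and hypoxia genes were higher in most cases as well. Of 18 genes 12 were higher and 2 were lower, with a median difference of 0.88, and rescaling to protein-coding genes left 10 higher and made 5 lower. Over all genes tested, 36.7% were higher, 31.9% were lower and 8.50% lay above every other tumor. The glycolytic enzyme genes Eno1 at 1911, 1914 and 1723 TPM, Pgk1 at 994, 1046 and 944 TPM and Aldoa at 1658, 1545 and 1501 TPM lay above every other tumor, whose highest values were 1225, 824 and 1420. Ndrg1 at 22.5, 17.5 and 23.2 TPM lay just below the lowest other value of 23.7, and Egln3, a prolyl hydroxylase of the hypoxia response, was lower, with a difference of -2.20. The glucose transporter gene Slc2a1 did not pass the test (adjusted p = 0.453). None of these calls held against the spread between models.

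Cell cycle and replication genes were higher in 19 of 22 cases and lower in 2, with a median difference of 0.83, and rescaling to protein-coding genes left 17 higher and 3 lower. Cdk2, the kinase of S phase entry, stood at 283, 310.2 and 294 TPM, with other tumors from 14.1 through 24.2 to 41.1, a difference of 3.52 ± 0.07 (adjusted p = 6.08e-25), and it alone held against the spread between models (adjusted p = 0.000345). In the GENCODE M21 annotation Cdk2 (chr10:128697939-128705031, minus strand) overlaps Pmel (chr10:128704195-128720238, plus strand) by 837 bases at their ends. Whether the counting used strand is not stated, so reads in the shared stretch cannot be assigned to either gene. Mcm2, a subunit of the replicative helicase, stood at 150.4, 169.9 and 164 TPM against at most 70.6, and Ccnd2 at 205, 187 and 197 TPM against at most 168. The cyclin gene Ccnd1 and Myc were lower, with differences of -1.16 and -0.43.

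Tumor suppressor genes of the Cdkn2 locus were low. Cdkn2a stood at 0.20, 0.65 and 0.08 TPM, with other tumors from 0.09 through 8.81 to 138, and Cdkn2b at 0.25, 0.32 and 0.05 TPM against 0.20 to 45.0, so that both shared the bottom of the range with other models. Their neighbour Mtap stood at 70.8, 83.7 and 84.4 TPM and was higher by 0.71. Of 13 genes of the p53 pathway and this locus 5 were higher, 5 were lower and 3 did not pass the test, Trp53 itself among the last (difference -0.12, adjusted p = 0.202), and rescaling to protein-coding genes gave 4 higher and 8 lower. Of 25 lysosome genes 12 were higher and 9 were lower. Counts of both lists stand beside 36.7% higher and 31.9% lower over all genes. The glucuronidase gene Gusb lay above every other tumor at 69.2, 76.9 and 76.7 TPM, and the cathepsin gene Ctsl lay below them at 53.1, 55.2 and 65.2 TPM against 109 to 436. None of the calls in these lists held against the spread between models.

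Marker genes of tissues next to the implanted tumor were checked in the same way. None of the 10 skeletal muscle genes passed the test, and their summed TPM was 140, 110 and 144 against 0.43 to 781 elsewhere. All 6 tested keratinocyte genes were lower, as were 7 of 8 hepatocyte genes and 4 of 5 renal tubule genes, with liver and kidney lines among the models compared. By the mean of log2(TPM + 1), B16-F10 ranked 3 of the 12 models for the hepatocyte list and 6 for the renal list. The exceptions were Trf, the transferrin gene, higher by 1.35, and Cubn, an endocytic receptor of the renal tubule, at 11.3 TPM in each B16-F10 tumor against at most 2.48. Of adipocyte genes 1 of 7 tested was lower, Lipe, and of erythroid genes 1 of 5, and none was higher. Over all genes tested, 31.9% were lower and 36.7% higher. Of the sex gene list only Xist was tested, and it was lower at 12.2, 8.35 and 10.6 TPM against 8.44 to 134, with the difference not held against the spread between models (adjusted p = 0.195).

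The position of genes on the chromosomes was not used in the choice of tumors. Over protein-coding genes the median difference of chromosome 6 was 0.513 above that of all chromosomes, with 639 genes tested and medians of 0.605, 0.662 and 0.580 in the 3 tumors. On this chromosome 193 genes (30.2%) lay above every other tumor, against 10.2% of all protein-coding genes tested. Chromosome 12 came next, 0.351 above, with 101 of 442 genes (22.9%) above every other tumor. On day 8 the shares were 28.8% on chromosome 6, 13.8% on chromosome 12 (60 of 435 genes) and 8.85% of all protein-coding genes. Chromosome 19 was lowest, at -0.309 relative to all chromosomes, followed by chromosome 18 at -0.277. The median of chromosome 6 was above that of all chromosomes against each of the 11 other models, from 0.294 against Hepa 1-6 to 0.873 against MBT2, and that of chromosome 12 from 0.203 against LL/2 to 0.643 against Hepa 1-6. On day 8 these ranges were 0.277 to 0.843 for chromosome 6 and 0.034 to 0.787 for chromosome 12, with the same models at their ends. Genes on a chromosome are not replicates, and DNA copy number was not measured. Mitf and Met lie on chromosome 6.

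Some genes above every other tumor were neighbours. There were 53 runs of at least 3 neighbouring protein-coding genes above all other tumors, with 187 genes, and 17 such runs below, with 55 genes. Over all protein-coding genes tested, 10.2% lay above every other tumor, and on chromosome 6 30.2% did. How many runs such shares would give by themselves was not tested. The longest run above was Vipas39, Ahsa1, Sptlc2, Alkbh1, Slirp, Snw1 and Adck1 on chromosome 12, of which 3 again lay above every other tumor on day 8. On chromosome 6, Adck2, Ndufb2, Braf, Mrps33 and Agk formed a run around the kinase gene Braf, and Podxl2, Mcm2, Tpra1, Plxna1 and Chchd6 a run around Mcm2, and all 5 genes of each again lay above every other tumor on day 8. Among the runs below were C1qb, C1qc and C1qa on chromosome 4 and Aif1, Lst1, Ltb, Tnf and Nfkbil1 on chromosome 17, and also neighbours such as Cast, Ell2 and Glrx on chromosome 13. The run of glutathione transferase genes on chromosome 9, with Gsta1 and Gsta2, consists of near-identical copies and counts as uncertain.

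**Figure D4:**
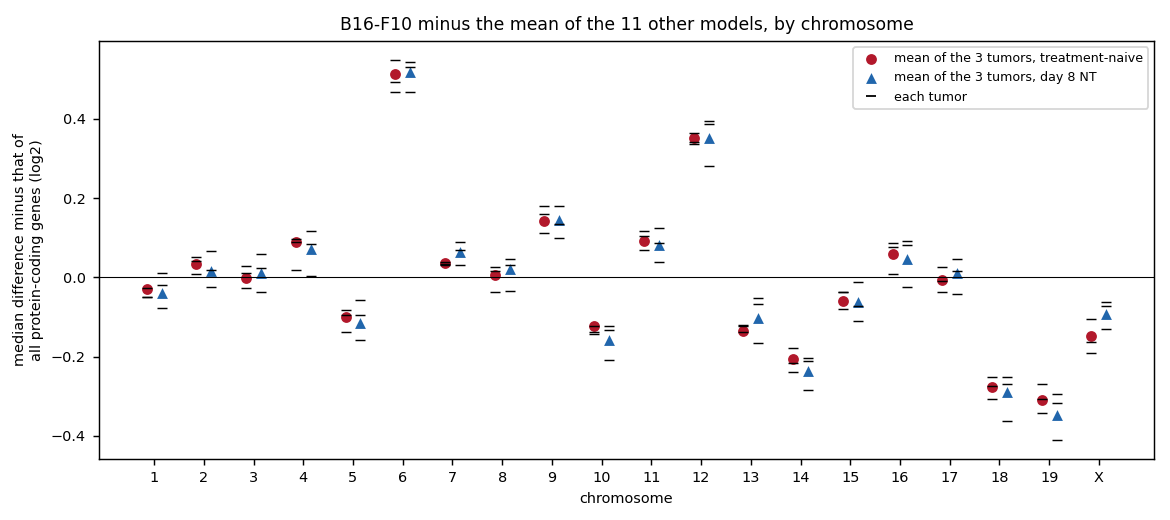
Median difference of protein-coding genes on each chromosome, B16-F10 minus the mean of the 11 other models, after subtraction of the median of all protein-coding genes. Red circles are the treatment-naive tumors and blue triangles the day 8 NT tumors taken as means, dashes are single tumors, and chromosomes 6 and 12 lie above 0 and chromosomes 18 and 19 below 0 at both stages.

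The day 8 NT tumors came from other mice and share no sample with the treatment-naive comparison. Of 17273 genes tested, 6198 (35.9%) were higher and 5834 (33.8%) lower in B16-F10, 1298 (7.51%) lay above and 1103 (6.39%) below every other NT tumor, and 303 (1.75%) were higher and 217 (1.26%) lower against the spread between models. Of the 1491 genes above all treatment-naive tumors 1478 were tested again, and 1028 of them lay above all NT tumors, which is 69.6% of the tested genes and 79.2% of the day 8 set. Of the 907 below, 894 were tested again and 678 lay below all NT tumors, which is 75.8% of the tested genes and 61.5% of the day 8 set. None of the genes of either set was called in the opposite direction. Across the 16925 genes tested at both stages, which are not independent replicates, the differences had a Pearson correlation of 0.944. All 21 pigment genes were higher on day 8 and 19 of them lay above every other NT tumor. Tyrp1 stood at 3018, 3472 and 2577 TPM and Mitf at 406, 418 and 317 TPM on day 8, again above every other tumor.

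The difference of B16-F10 from the other models itself changed between stages for few genes. In the interaction contrast over all 71 untreated tumors, it was raised on day 8 for 43 of 17428 genes (0.247%) and lowered for 176 (1.01%). The number lowered was 37 without NT replicate 5 of B16-F10, between 84 and 116 without NT replicate 2 or any of the treatment-naive replicates, and 412 with a pseudocount of 0.1. The number raised was 15 without NT replicate 5 and between 17 and 32 without any other of the 6 B16-F10 tumors. Macrophage genes were among those lowered. Csf1r stood at 4.27, 5.18 and 2.83 TPM on day 8, against 12.6, 8.34 and 10.6 before, and its difference from the other models changed by -1.20 (adjusted p = 0.0022, and 0.0623 without NT replicate 5). C1qc stood at 18.4, 20.2 and 12.7 TPM, with a change of -1.16 (adjusted p = 0.00124), and it alone of the macrophage genes kept its call when any of the 6 B16-F10 tumors was left out. On day 8, 12 of the 14 macrophage genes and 8 of the 20 fibroblast genes lay below every other tumor, with median differences of -2.65 and -2.54. Tyr and Cdh19 were raised, by 0.35 (adjusted p = 0.0467) and 0.38 (adjusted p = 0.00288). The call for Tyr held in 2 of 10 alternative fits, and that for Cdh19 was lost without treatment-naive replicate 1 and with a pseudocount of 0.1.

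Marker genes of skeletal muscle and blood did not pass the test of the stage difference, but their levels varied among the tumors. All 10 skeletal muscle genes were lower in B16-F10 on day 8, with summed TPM of 23, 1.34 and 4.11 against 140, 110 and 144 before. The median sum over the tumors of the other models was also lower on day 8, at 40.2 TPM against 127. Adipocyte genes summed to 23.6, 23.6 and 21.1 TPM in B16-F10 on day 8 against 51.3, 39.0 and 40.9 before, with a median of 36.6 against 55.7 in the others, and all 3 tested on day 8 were lower in B16-F10. Summed TPM of the erythroid genes was 217, 2781 and 212 on day 8, and NT replicate 4 stood apart from the other two tumors. The same tumor had the highest sums for MHC class II genes, at 279 TPM against 81.4 and 58.8, for interferon response genes, at 595 TPM against 197 and 164, and for monocyte and neutrophil genes, at 29.6 TPM against 7.7 and 10.3. Without it the difference from the other models was raised on day 8 for 32 genes and lowered for 191. The part of these marker genes' sources in the stage differences was not tested.

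**Figure D5:**
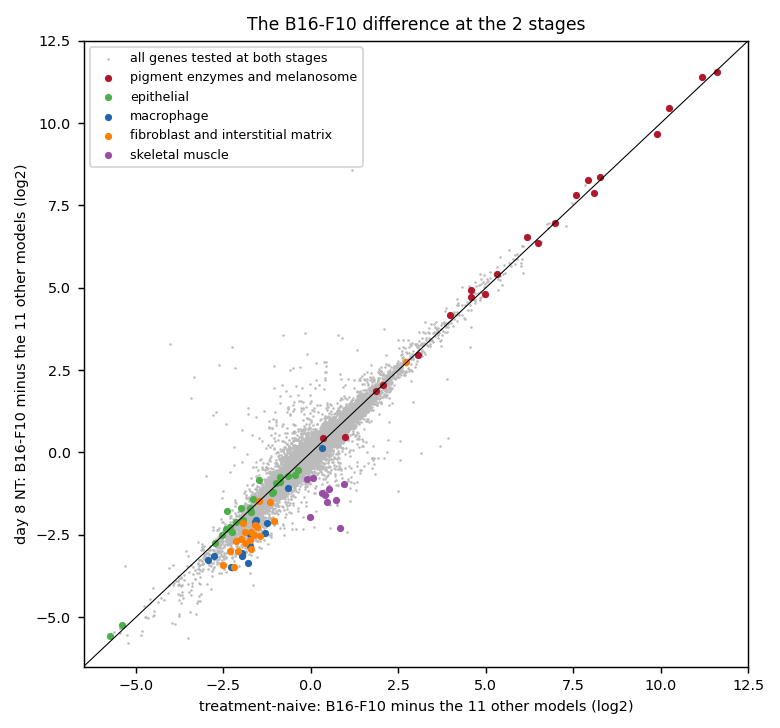
Difference of B16-F10 from the 11 other models in log2(TPM + 1) for each gene tested at both stages, treatment-naive on the horizontal axis and day 8 NT on the vertical axis. Colored points are pigment, epithelial, macrophage, fibroblast and skeletal muscle genes, the line marks equal differences, and pigment and epithelial genes lie near the line while macrophage, fibroblast and muscle genes lie mostly below it.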

How the data were processed

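RNA of 107 tumors was purified with the Maxwell RSC simplyRNA Tissue Kit, depleted of ribosomal RNA and sequenced on 2 platforms (NovaSeq and NextSeq), and which tumor went to which platform is not given in the sources used here. Per the methods and the submitters' processing notes, the authors used FastQC 0.11.5 for quality, Trimmomatic 0.36 for adapters and poor bases, STAR 2.5.2b for alignment to mm10 (Ensembl 88) and RSEM 1.2.31 for expression. The deposited values are TPM with 2 decimals for 50686 genes, each tumor summing to between 999999 and 1000001. TPM keeps no depth, so no interval for counting error can be given, and the strand setting of the counting is not given in the sources used here.

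The values were taken as log2(TPM + 1) of the deposited table, over genes with a mean of at least 1 TPM in the tumors fitted. limma 3.58.1 in R 4.3.3 (lmFit, contrasts.fit, eBayes with trend) took in all 35 treatment-naive tumors as 12 groups, with B16-F10 set against the unweighted mean of the other 11. The same was done for the 36 NT tumors, and the stage difference was an interaction contrast over 71 tumors. Tests were two-sided, p-values were adjusted over all tested genes by the Benjamini-Hochberg method, and the threshold was 0.05. Tumors of a model came from separate mice carrying 1 cell line, so the p-values measure the spread between such tumors. The spread between models was used by fitting limma to the 12 model means. B16-F10 enters that fit as 1 mean, so the spread is that of the 11 other means. No pair of tumors shared more than 2.91% identical values over genes above 0 in either.

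The text names the 15 protein-coding genes with the largest gap to the nearest other model in each direction among genes outside all other tumors, at most about 6 members, and for some none, of each of 34 gene lists (members with the largest difference, members of the other direction and members whose role defines the list), and genes of runs of at least 3 neighbours. More members of the pigment, lineage and MHC class I lists are named, chosen after their values were seen. The tumors and lists were chosen with earlier results of these data known. Gene types and positions are from GENCODE M21, with a record for 50462 genes, and promoters from the RefSeq table of GRCm38.p6. The fits were tested on simulated data. Alternatives were a pseudocount of 0.1, minimum mean TPM of 0 or 5, rescaling to the upper quartile or to protein-coding genes, no trend, tumors weighted equally, models in C57BL/6 or in female hosts only, a replicate block, and each tumor or model left out. LEN tumors were not used. Python 3.11.15 with pandas 2.3.3, numpy 2.4.6 and matplotlib 3.10.9 was used for tables and plots.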

Additional observations from a re-analysis of the deposited data

Results flagged for a closer look

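The difference between B16-F10 and the other models was tested for a change between the treatment-naive and the day 8 NT tumors (limma interaction contrast, Benjamini-Hochberg adjustment), and the genes given here passed that test. It was raised on day 8 for 43 genes and lowered for 176. With 1 of the 6 B16-F10 tumors left out these counts ran from 15 to 32 and from 37 to 191, the lowest of both without NT replicate 5, and 412 genes were lowered with a pseudocount of 0.1. Among genes of the lists it was raised for Tyr by 0.35 (adjusted p = 0.0467) and for Cdh19 by 0.38 (adjusted p = 0.00288). Among macrophage genes the change was -1.13 for Adgre1 (adjusted p = 0.00618), -1.20 for Csf1r (0.0022), -1.10 for C1qa (0.0029), -1.08 for C1qb (0.00498), -1.16 for C1qc (0.00124) and -1.55 for Mrc1 (0.00907). Ccr2, the chemokine receptor gene of inflammatory monocytes, changed by -1.23 (adjusted p = 0.02) and the ligand gene Pdgfc by -0.71 (adjusted p = 0.0148). All 3 day 8 tumors stood below all 3 treatment-naive tumors of B16-F10 for Adgre1, Csf1r, C1qa, C1qb, C1qc, Mrc1, Ccr2 and Pdgfc. Without NT replicate 5 the calls for Adgre1, Csf1r, C1qa and C1qb were lost (adjusted p = 0.0863, 0.0623, 0.0642 and 0.0999). Mrc1 lost its call without NT replicate 5 or treatment-naive replicate 1, Pdgfc without NT replicate 5 or treatment-naive replicate 1 or 3, and Ccr2 without any of these or NT replicate 2, with adjusted p of up to 0.0845, 0.129 and 0.21. Cdh19 lost it without treatment-naive replicate 1 and with a pseudocount of 0.1 (adjusted p over all alternatives up to 0.383), and Tyr kept it in 2 of 10 alternatives (highest adjusted p = 0.666). C1qc kept its call in all 10 alternatives run, with adjusted p of at most 0.0438.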

How the results depend on the processing

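The 30 genes named for their gap kept direction and threshold in 1380 of 1380 values with a tumor or model left out, and 29 of 30 kept them against the spread between models, the exception being Gprc5a. Of the 169 other named genes 127 lost their call against that spread. It left 307 genes higher and 90 lower in treatment-naive tumors, 303 and 217 on day 8, and 33 and 4 of the list members in place of 114 and 224. A minimum mean of 5 TPM left 3365 genes lower (3651 on day 8) and 23 raised between stages. Against models in C57BL/6 hosts alone, 2 in number, 3677 genes lay above and 2929 below all other tumors (3304 and 3396 on day 8), with fewer tumors to exceed. In that setting 114 list members were higher and 178 lower, in place of 114 and 224. Of the 169 other named genes 149 were unchanged, 9 lost their call, 6 gained one and 5 turned. Rescaling to protein-coding genes put 1405 genes below all others, and a pseudocount of 0.1 gave 412 genes lowered between stages, and the cause was not tested. With 1 of the 6 B16-F10 tumors left out, the stage counts ran from 15 to 32 raised and from 37 to 191 lowered. The median of chromosome 12 was 0.371 after protein-coding rescaling, and on day 8 those of chromosomes 14 and 19 were -0.237 and -0.348.

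Directions turned for Cdk4 (-0.23, adjusted p = 0.00964) and Esrra (-0.20, adjusted p = 0.0374) on protein-coding rescaling. Against C57BL/6 hosts alone they turned for Rsad2 (-1.18, adjusted p = 0.000461) and Tgfb2 (0.81, adjusted p = 0.00332). The sign also turned there for Ifit2 (-0.23, adjusted p = 0.335), Ifit3 (-0.59, adjusted p = 0.13) and Flt1 (0.048, adjusted p = 0.824), without passing the test. List medians turned for adipocyte genes with a pseudocount of 0.1 (0.22), for erythroid genes on upper-quartile and protein-coding rescaling (-0.03 and -0.13), likewise for p53 pathway genes (-0.13 and -0.24), and for lysosome genes on protein-coding rescaling (-0.069). Upper-quartile rescaling moved the median of all genes to -0.089 and the share of calls that were higher to 44.3%, and protein-coding rescaling to -0.204 and 37.1%, from 0.043 and 53.5%.

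Replicate numbers did not pair the tumors. Same-numbered treatment-naive tumors of different models had a mean correlation of 0.001 over 187 pairs, between -0.147 and 0.137, and those of day 8 0.008 over 118 pairs, between -0.112 and 0.218 with 4 pairs over 0.1. Same-numbered pairs with a B16-F10 tumor reached 0.083 and, on day 8, 0.152. With the replicate number as a block, 6438 genes were higher and 5583 lower, and 33 were raised and 155 lowered between stages. Depth is unknown, so values near 0 carry no counting interval.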
